A study of Mus musculus with 12 samples.

Results

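The MHC class II and B cell transcripts were 9 genes out of the 41457 in the deposited gene tables, taken by name: Cd74, H2-Aa, H2-Ab1 and H2-Eb1 of the class II pathway, and Cd79a, Cd79b, Ms4a1, Ighm and Igkc of B cells. They were read in each library as transcripts that a sorted T cell sample could hold from B cells or other antigen-presenting cells. RNA-Seq was done on regulatory T cells (Treg) sorted from mouse spleen as RFP+CD4+ cells, and the 12 libraries formed 4 groups of 3. CD18Foxp3 Treg came from mice with floxed Itgb2, the gene of the β2-integrin chain CD18, and Cre expressed from Foxp3, with an RFP reporter at the Rosa26 locus, while CD18wt Treg came from littermates with wild-type Itgb2 and the same Cre. Every culture received IL-2 at 5 U/mL overnight, and the stimulated cultures of each genotype also received anti-CD3 at 1 μg/mL and anti-CD28 at 2 μg/mL. Cre and reporter were thus shared by all groups, and the age of the mice is not given in the sources used here. The labels call the replicates biological, and the study plots them as individual mice. The unstimulated and stimulated tables of 1 genotype and replicate share a number in their names, whose meaning is not given in the sources used here.

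MHC class II molecules present peptides to CD4+ T cells. H2-Aa and H2-Ab1 encode the chains of I-A, H2-Eb1 encodes the β chain of I-E, and Cd74 encodes the invariant chain that guides class II molecules to the compartment where peptides are loaded. CD79a and CD79b carry the signal of the B cell receptor, whose IgM heavy chain comes from Ighm and whose κ light chain comes from Igkc. Ms4a1 encodes CD20 of mature B cells. In mice, class II protein is made mainly by B cells, dendritic cells and macrophages.

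The promoters of the chains are shown because class II genes share a known upstream arrangement of X and Y boxes. RefSeq sequence of GRCm38.p6 was matched for 3 of the 9 members, Cd79a, H2-Aa and H2-Eb1. The 250 bases before the start were searched on both strands for CCAAT, the core of the Y box, for AGCAAC, a core of the X box, and for ATGCAAA, the first 7 letters of the immunoglobulin octamer. None of the matches overlapped another, and capitals mark them. H2-Aa (chr17:34287824-34288073, minus strand) and H2-Eb1 (chr17:34305617-34305866, plus strand) are printed 5′ to 3′ along the gene. Both windows are set by RefSeq starts, which differ by a few bases from the 5′ ends in the deposited tables, 34287827 and 34305877.
H2-Aa: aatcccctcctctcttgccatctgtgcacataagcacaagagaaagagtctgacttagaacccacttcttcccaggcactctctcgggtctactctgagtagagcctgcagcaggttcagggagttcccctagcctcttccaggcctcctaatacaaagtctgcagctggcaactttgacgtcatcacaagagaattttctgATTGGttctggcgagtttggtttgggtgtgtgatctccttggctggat
H2-Eb1: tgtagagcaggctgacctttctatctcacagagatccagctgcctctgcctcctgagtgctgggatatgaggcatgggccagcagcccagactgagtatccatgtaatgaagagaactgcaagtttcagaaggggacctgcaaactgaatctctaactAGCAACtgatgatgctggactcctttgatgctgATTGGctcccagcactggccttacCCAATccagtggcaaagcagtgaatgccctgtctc
H2-Aa held 1 CCAAT, on the opposite strand, 48 to 44 bases before the start. H2-Eb1 held 2, one on the opposite strand at 59 to 55 bases and one on the gene's strand at 35 to 31 bases, and an AGCAAC at 92 to 87 bases. The window of Cd79a, set by a RefSeq start at chr7:24897247-24897496 and so running past the gene start of the deposited tables, held none of the 3 words. Of 32851 promoter windows of that length, 33.8% held CCAAT, 12.2% AGCAAC and 4.12% ATGCAAA.

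The libraries held 10665174 to 19005482 exon reads. The targeted gene Itgb2 was at 387 to 465 TPM (a transcript's level per length, scaled so that each library sums to 1000000) in unstimulated CD18wt Treg and at 229 to 257 TPM in unstimulated CD18Foxp3 Treg, with no overlap. After stimulation it was at 329 to 331 TPM in CD18wt and 131 to 202 TPM in CD18Foxp3 Treg. The log2 fold change of CD18Foxp3 over CD18wt Treg was -0.85 (SE, the standard error of the fit, 0.09) without stimulation, past the threshold used for the members, and -0.94 (SE 0.17), not called, with it. The unstimulated call was lost without any 1 library other than replicate 3 of CD18wt Treg (edgeR adjusted p from 0.016 to 0.046), with limma and in the fit of all 12 libraries (adjusted p = 0.039). The stimulated difference was called by DESeq2 (adjusted p = 3.7e-04) and without the filter (1.5e-04). The deleted exon is a small part of the transcript, so these levels check the labels only in part. Some libraries stood apart in transcripts of other cells. Replicate 1 of unstimulated CD18wt Treg held 13 reads of Fcer2a, which encodes CD23 of B cells, and 130 of the myeloid lysozyme Lyz2. Replicate 2 of stimulated CD18wt Treg held 19 reads of Itgax, which encodes CD11c of dendritic cells, where the other 11 libraries held at most 2. Where leaving out one of these libraries turned the sign of a member, the value without it or the range with a library left out is given.

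Among the class II members Cd74 was by far the most abundant per length. Unstimulated CD18wt Treg had 110, 125 and 108 TPM in replicates 1 to 3, and unstimulated CD18Foxp3 Treg had 147, 185 and 217 TPM. Stimulated CD18wt Treg had 96.8, 96.0 and 44.2 TPM, and stimulated CD18Foxp3 Treg had 103, 129 and 184 TPM. In both cultures every CD18Foxp3 library was above every CD18wt library. All exon reads of Cd74 (ENSMUSG00000024610, chromosome 18, 60803848 to 60812646) were placed uniquely, and 37.4% of them crossed an exon junction.

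H2-Aa (ENSMUSG00000036594, chromosome 17, 34282744 to 34287827) rested on few reads. Its exon reads were 43, 15 and 21 in unstimulated CD18wt, 33, 23 and 22 in unstimulated CD18Foxp3, 8, 83 and 5 in stimulated CD18wt, and 3, 4 and 9 in stimulated CD18Foxp3 Treg. The stimulated CD18wt group spread over both unstimulated groups because of replicate 2 alone. Its level was 2.52 ± 1.23, 2.16 ± 0.292, 3.11 ± 4.0 and 0.525 ± 0.364 TPM (SD, n = 3) in the same order of groups.

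H2-Ab1 (ENSMUSG00000073421, chromosome 17, 34263209 to 34269418) held 46, 23 and 9 exon reads in unstimulated CD18wt, 20, 31 and 52 in unstimulated CD18Foxp3, 9, 108 and 20 in stimulated CD18wt, and 13, 21 and 38 in stimulated CD18Foxp3 Treg. H2-Eb1 (ENSMUSG00000060586, chromosome 17, 34305877 to 34316199) held 51, 24 and 17, then 33, 35 and 72, then 23, 111 and 23, and then 16, 37 and 34 exon reads. Replicate 2 of stimulated CD18wt Treg was the highest of all 12 libraries for H2-Aa, H2-Ab1 and H2-Eb1, at 7.72, 11.5 and 16.3 TPM. Cd74 in that library, 96.0 TPM, was not above its group. Per length Cd74 was first in each of the 12 libraries, and H2-Eb1 was above H2-Aa in each, with a ratio from 1.28 to 14.6. H2-Ab1 came to 0.491 to 6.01 times H2-Aa, so their order was not fixed.

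**Figure D1:**
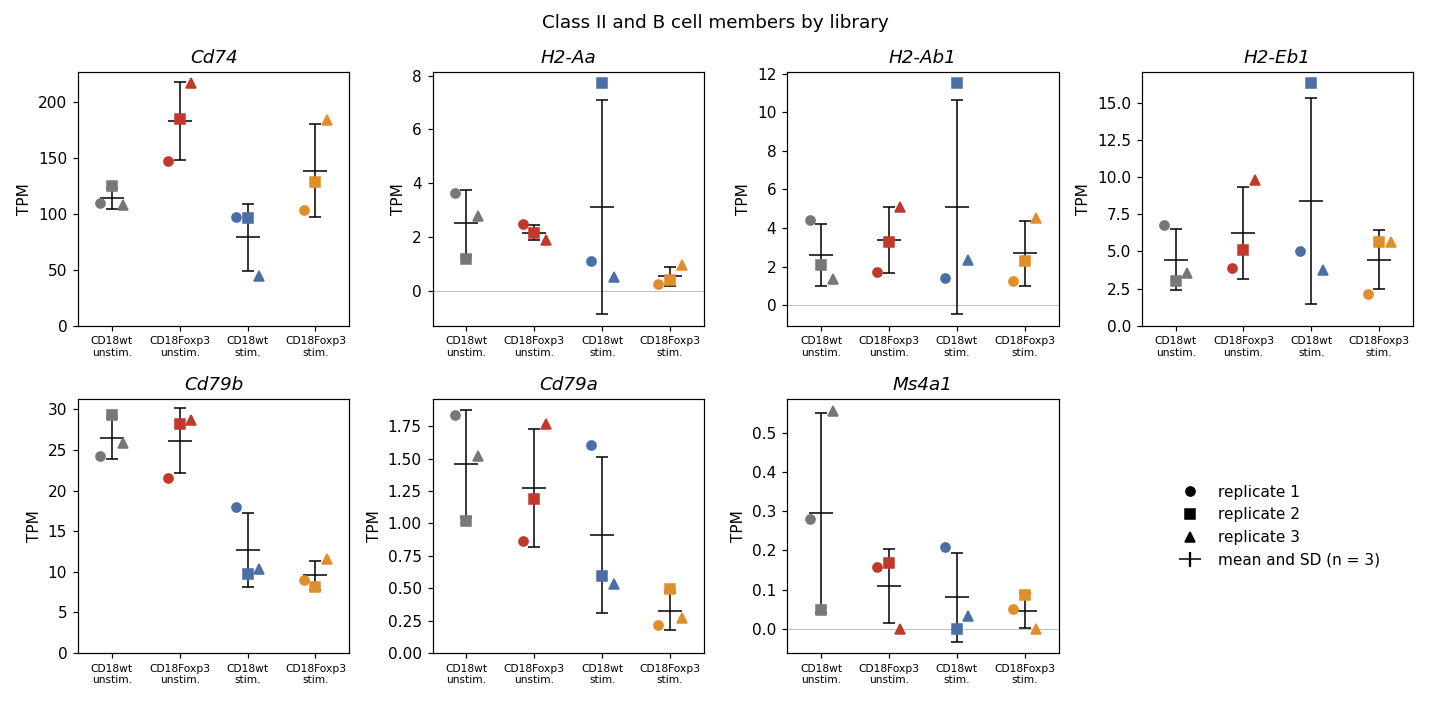
TPM of the 7 members with annotated exons in each of the 12 libraries, with a panel for each gene and a linear axis of its own. Points are libraries, shaped by replicate number, and the lines give the mean and SD of 3. Cd74 lies far above the other members in every library, and replicate 2 of stimulated CD18wt Treg (square) stands alone in H2-Aa, H2-Ab1 and H2-Eb1.

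The B cell members differed strongly among themselves. Cd79b (ENSMUSG00000040592, chromosome 11, 106311341 to 106314762) had 24.2, 29.2 and 25.8 TPM in unstimulated CD18wt and 21.5, 28.3 and 28.6 TPM in unstimulated CD18Foxp3 Treg. Stimulated CD18wt Treg had 18.0, 9.74 and 10.3 TPM, and stimulated CD18Foxp3 Treg 8.94, 8.17 and 11.6 TPM. The stimulated libraries of each genotype lay below its unstimulated ones, and the genotypes overlapped in both cultures. Of all genes tested, 14.2% in CD18wt and 19.2% in CD18Foxp3 Treg were likewise lower in TPM in every stimulated library.

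Cd79a (ENSMUSG00000003379, chromosome 7, 24897381 to 24902197), whose protein pairs with that of Cd79b, held 17, 10 and 9 exon reads in unstimulated CD18wt, 9, 10 and 16 in unstimulated CD18Foxp3, 9, 5 and 4 in stimulated CD18wt, and 2, 4 and 2 in stimulated CD18Foxp3 Treg. Its level stayed at or under 1.84 TPM in every library. Over introns Cd79a held 121 reads in all, against 97 over exons, with 11, 15 and 13 intron reads in stimulated CD18Foxp3 Treg. Ms4a1 (ENSMUSG00000024673, chromosome 19, 11249675 to 11266241) held at most 14 exon reads and none in 3 of the 12 libraries, each of which allows up to 3 reads, or 0.192 RPM (reads for every 1000000 exon reads of the library) in the shallowest of these. These limits cover counting error only.

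The ratios of members within a library show how unevenly they were present. Cd79b exceeded Cd79a by 11.2 to 43.3 times in TPM, which counts exon reads alone, with a median of 18.2. In reads over the gene, unstimulated CD18wt Treg held 220, 283 and 150 of Cd79b and 25, 22 and 10 of Cd79a. Stimulated CD18Foxp3 Treg held 81, 66 and 85 of Cd79b and 13, 19 and 15 of Cd79a, so the order of groups depends on the count used. Cd74 exceeded H2-Aa by 12.4 to 409 times, with a median of 87.1. The lowest of these ratios belonged to replicate 2 of stimulated CD18wt Treg, and the 3 stimulated CD18Foxp3 libraries, at 196 to 409, were above all others. Cd79b came to 0.221 to 0.240 of Cd74 in unstimulated CD18wt, 0.132 to 0.153 in unstimulated CD18Foxp3, 0.101 to 0.233 in stimulated CD18wt and 0.0630 to 0.0865 in stimulated CD18Foxp3 Treg. No test was run on the ratios, which for H2-Aa and Cd79a rest on as few as 3 and 2 reads.

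**Figure D2:**
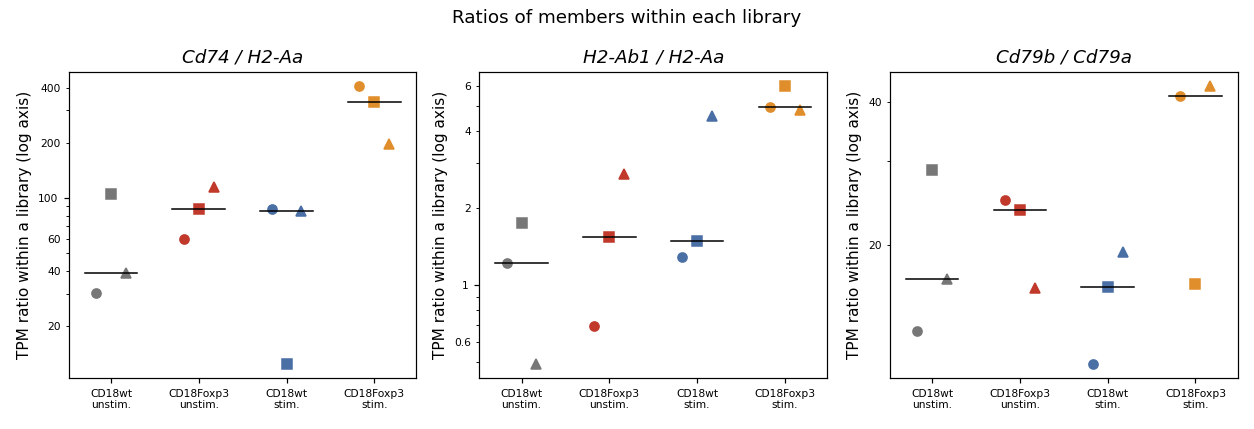
Ratios of TPM within each library on log axes, for Cd74 over H2-Aa, H2-Ab1 over H2-Aa and Cd79b over Cd79a. Points are libraries, shaped by replicate number (circle 1, square 2, triangle 3), and lines are medians of 3. Cd74 over H2-Aa runs from 12.4 to 409.

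Ighm and Igkc had no exon in the deposited tables, so their exon reads and TPM were 0 in all libraries by construction and say nothing of their expression. The same held for 12 of 13 immunoglobulin constant genes and 7 of 8 T cell receptor constant genes, Trac among them. The tables also count reads over the whole gene, and there Ighm (ENSMUSG00000076617, chromosome 12, 113418558 to 113422730, minus strand) was abundant. Unstimulated CD18wt Treg had 11523, 9853 and 5906 reads over Ighm, and unstimulated CD18Foxp3 Treg had 13144, 10357 and 12224. Stimulated CD18wt Treg had 3758, 3836 and 3537, and stimulated CD18Foxp3 Treg had 5386, 4866 and 4604. Every unstimulated library held more reads than every stimulated one. The share of all genes with such a split was not counted in reads over the gene. In TPM it was 14.2% within CD18wt and 19.2% within CD18Foxp3 Treg. The means were 590 ± 70.2, 697 ± 24.9, 252 ± 54.8 and 287 ± 7.28 RPM (SD, n = 3) in the same order.

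In the GENCODE M21 annotation of GRCm38, Ighm has the coordinates used in the tables, and its annotated exons cover 1886 of its 4173 bases. The tables do not show which bases the reads covered, nor from which strand they came. Over the whole span, Ighm had 141 ± 16.8 RPM per kilobase in unstimulated CD18wt Treg, against 42.7 ± 3.41 for Cd74 and 9.90 ± 0.980 for Cd79b over their exons (SD, n = 3). Trac, the constant gene of the T cell receptor α chain, was counted in the same way and held 5782 to 16905 reads. Reads over Ighm came to 0.713 to 0.717 of those over Trac in unstimulated CD18wt and 0.736 to 0.824 in unstimulated CD18Foxp3 Treg. They came to 0.466 to 0.650 in stimulated CD18wt and 0.451 to 0.601 in stimulated CD18Foxp3 Treg, below both unstimulated groups. Against the exon reads of Cd79b, reads over Ighm came to 34.9 to 74.9 times over the 12 libraries.

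Igkc (ENSMUSG00000076609, chromosome 6, 70726435 to 70726966) had 0 reads over the gene in all 12 libraries. The gene lies within the annotated long noncoding gene Gm30211 on the same strand (70719074 to 70740554), which held 40 to 462 reads over the gene. The tables do not show whether reads over Igkc were assigned to Gm30211, so the 0 of Igkc is not a measured absence.

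Variable segments, which are joined to the constant genes in B cells and plasma cells, held few reads. The 115 Ighv segments together held 114, 26 and 22 reads in unstimulated CD18wt, 16, 98 and 26 in unstimulated CD18Foxp3, 6, 0 and 6 in stimulated CD18wt, and 6, 8 and 0 in stimulated CD18Foxp3 Treg. The 100 Igkv segments held 159, 94 and 43, then 32, 177 and 60, then 12, 6 and 10, and then 13, 9 and 0 reads. Replicate 1 of unstimulated CD18wt and replicate 2 of unstimulated CD18Foxp3 Treg were highest in both families, and they were also highest in Jchain, the joining chain of secreted antibody, with 72 and 69 exon reads. Ighm was highest elsewhere, in replicate 3 of unstimulated CD18Foxp3 Treg with 724 RPM. Of the other heavy chain genes, Ighd held 43 to 120 reads.

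**Figure D3:**
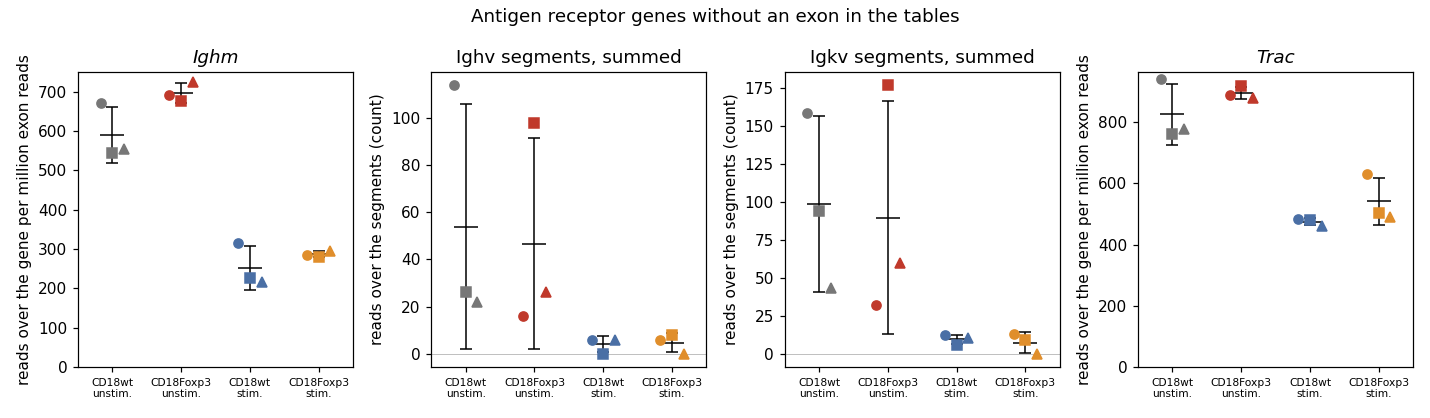
Reads over the gene for Ighm and Trac in RPM, scaled to exon reads, and summed read counts over the Ighv and Igkv segments, in each library. Points are libraries, shaped by replicate number (circle 1, square 2, triangle 3), and lines give the mean and SD of 3. Ighm and Trac lie lower in the stimulated libraries, and the segments peak at 114 and 177 reads.

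The first question was whether the genotypes differed without stimulation. Exon counts were tested with edgeR over all genes, and genes past both a 1.5-fold change and an adjusted p of 0.01 were called. These were 0.135% of the genes tested, 0.0507% higher and 0.0845% lower in CD18Foxp3 Treg. None of the 6 members tested was called. On the log2 scale Cd74 was 0.65 higher in CD18Foxp3 than in CD18wt Treg (SE 0.12, edgeR adjusted p = 0.053). It was called by DESeq2 (adjusted p = 0.00057) and without the filter on low counts (adjusted p = 6.7e-08), but in none of the 6 fits without a library, where adjusted p ran from 0.039 to 0.25. Its TPM gave p = 0.1 in the two-sided exact permutation test, the smallest p that 3 against 3 libraries allow. Of all genes tested, 8.74% were likewise higher in all CD18Foxp3 libraries than in all CD18wt libraries, and 6.9% were lower.

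The class II chains overlapped between the unstimulated genotypes. H2-Aa was at a log2 fold change of -0.24 (SE 0.50), H2-Ab1 at 0.31 (SE 0.54) and H2-Eb1 at 0.46 (SE 0.46). Without replicate 1 of unstimulated CD18wt Treg, H2-Aa turned to 0.12. With a library left out, H2-Eb1 ran from 0.016 to 0.89. Cd79b was at -0.04 (0.17) and Cd79a at -0.22 (0.58). Ighm, tested in reads over the gene, was at 0.21 (SE 0.10, edgeR adjusted p = 0.58) with no overlap in RPM, and that fit called 0.133% of genes, 0.0784% lower. Ms4a1 had too few reads to be tested.

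In stimulated Treg none of the 4 members tested was called between genotypes, and 0% of all genes were. Of 11930 genes tested, 583 had an unadjusted p under 0.05 in edgeR, and DESeq2 called 22. Cd74 was again higher in every CD18Foxp3 library, at 0.80 on the log2 scale (SE 0.32, edgeR adjusted p = 0.95), and without the filter on low counts it was called (0.81, adjusted p = 0.0088). Of all genes 5.02% were higher without overlap and 4.41% lower. H2-Ab1 and H2-Eb1 were at -1.0 (0.78) and -0.98 (0.63). Without replicate 2 of stimulated CD18wt Treg these values turned to 0.55 and 0.07. Cd79b was at -0.38 (0.34), and Ighm in reads over the gene at 0.16 (0.17).

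The next question was what stimulation through CD3 and CD28 changed. In CD18wt Treg 33.6% of genes were called, 18.7% higher and 14.9% lower, and of the 6 members tested Cd79b alone was called. The split depends on the scale: limma on log2(TPM + 1) called 3589 genes higher and 858 lower, where edgeR called 2234 and 1779, and its median over all genes was 0.36 higher on the log2 scale against 0.02. Cd79b fell by 1.48 on the log2 scale (SE 0.27, edgeR adjusted p = 6.0e-04), and it was called in every alternative run. Its exact permutation p was 0.1, the smallest possible, in either genotype. Ighm, in a fit of reads over the gene that called 30.9% of genes, fell by 1.47 (SE 0.17, edgeR adjusted p = 1.5e-05), and leaving out any library kept it between -1.63 and -1.37. Cd74 was at -0.91 (SE 0.30, edgeR adjusted p = 0.031), short of the threshold. DESeq2 called it (adjusted p = 0.0011), and so did edgeR without replicate 3 of the stimulated group, at -0.61 (adjusted p = 0.0054). Cd79a was at -1.11 (SE 0.76, edgeR adjusted p = 0.25), and from -1.16 to -0.39 in the alternatives that kept all libraries. Fewer cells of a type and less RNA per cell cannot be told apart in such bulk libraries.

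With stimulation in CD18wt Treg, H2-Aa was at 0.01 (SE 0.89), H2-Ab1 at 0.64 (SE 0.77) and H2-Eb1 at 0.58 (SE 0.62) on the log2 scale. All turned negative without replicate 2 of the stimulated group, to -2.12, -0.94 and -0.50. In that replicate Itgax was at 19 reads and Clec9a, a marker of cross-presenting dendritic cells, at 4. The conventional dendritic cell list as a whole summed to 9.46 RPM there, with 8.45 to 11.3 RPM in its group and 9.38 to 13.7 RPM in unstimulated CD18wt Treg. Of its 10 genes 2, Clec10a and Clec4a4, were at 0 in the stimulated group and 4 in the unstimulated one, and the 3 tested had a median log2 fold change of 0.59, against 0.02 over all genes. Their part in the class II values was not tested.

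In CD18Foxp3 Treg 38.6% of genes were called, 20.9% higher and 17.6% lower, and 2 of the 5 members tested were called lower. limma on log2(TPM + 1) called 3783 genes higher and 1201 lower, against 2516 and 2120 in edgeR. Cd79b fell by 1.81 on the log2 scale (SE 0.22, edgeR adjusted p = 1.2e-04) and was called in every alternative run. H2-Aa fell by 2.42 (SE 0.56, edgeR adjusted p = 0.0050). It passed the filter through the unstimulated libraries alone, with 33, 23 and 22 exon reads against 3, 4 and 9 after stimulation. Between stimulated genotypes it was not tested. The call of H2-Aa was lost on leaving out any library other than replicate 3 of the stimulated group, at -2.52 to -2.10 with edgeR adjusted p from 0.014 to 0.025. It was also lost in the fit of all 12 libraries, at 0.034. Cd74 was at -0.77 (SE 0.21, edgeR adjusted p = 0.012), short of the threshold. It was called by DESeq2 (adjusted p = 0.00094) and, without replicate 3 of the stimulated group, by edgeR at -1.04 (adjusted p = 0.00094). With the replicate number as a block it was called at -0.79 (edgeR adjusted p = 2.9e-04). H2-Ab1 was at -0.69 (0.56) and H2-Eb1 at -0.86 (0.48), neither called. Ighm fell by 1.52 (SE 0.10, edgeR adjusted p = 2.2e-06) in reads over the gene, where 38.1% of genes were called and 17.2% were called lower, against 14% lower in CD18wt Treg.

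The interaction of genotype and stimulation asked whether stimulation acted differently in the genotypes. None of 12636 genes was called in edgeR (0%), 485 had an unadjusted p under 0.05, and DESeq2 called 1. The interaction of H2-Aa was -2.42 (SE 1.20, edgeR adjusted p = 0.99) and that of Cd79b -0.34 (SE 0.35). Cd74 was at 0.14 (0.40) and Ighm, in reads over the gene, at -0.05 (0.20).

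The other genes of class II processing and control, 18 in the tables, were called in the stimulation comparisons alone. In CD18wt Treg 15 were tested, 5 were called lower and 1 higher, where 14.9% and 18.7% of all genes were, with a median log2 fold change of -0.75 against 0.02 over all genes. In CD18Foxp3 Treg 7 of 15 were called lower and 1 higher, where 17.6% and 20.9% of all genes were, with a median of -0.82 against 0.01. None of these genes was called between genotypes in either culture. H2-DMb2, among those called lower in CD18Foxp3 Treg, passed the filter through the unstimulated libraries alone. It held 29, 11 and 30 exon reads there against 5, 4 and 0 after stimulation.

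Ctss, the protease that trims the invariant chain, was the most abundant of them and fell from 668 ± 46.8 to 254 ± 39.9 TPM in CD18wt and from 629 ± 22.0 to 249 ± 17.8 TPM (SD, n = 3) in CD18Foxp3 Treg. H2-DMa, which encodes a chain of the peptide exchange factor, fell from 69.9 ± 11.1 to 31.5 ± 3.51 TPM and from 87.3 ± 4.48 to 35.2 ± 6.86 TPM (SD, n = 3). Ifi30, a thiol reductase of the endosome, rose from 57.0 ± 17 to 134 ± 14.4 TPM and from 54.9 ± 7.83 to 137 ± 24.8 TPM (SD, n = 3). The rise of Ifi30 in CD18wt Treg was called at an adjusted p just under the threshold (0.00998, edgeR) and was lost without replicate 1 or 2 of either group, at an adjusted p of 0.026 to 0.050 in edgeR. It was also lost with the replicate block (edgeR adjusted p = 0.022), with DESeq2 size factors (0.013) and in gene reads (0.013). Nfyc and Nfyb, subunits of the factor that binds CCAAT, were not called, at log2 fold changes of -0.03 and -0.28 in CD18wt and -0.06 and 0.02 in CD18Foxp3 Treg.

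H2-Oa and H2-Ob, which encode the inhibitor of that exchange factor known from B cells, were chosen after their values were seen. H2-Ob fell from 29.1 ± 2.07 to 3.60 ± 0.735 TPM in CD18wt and from 30.8 ± 1.30 to 3.42 ± 0.617 TPM (SD, n = 3) in CD18Foxp3 Treg. Its log2 fold changes were -3.43 (SE 0.20, edgeR adjusted p = 1.2e-07) and -3.54 (SE 0.17, edgeR adjusted p = 1.4e-06). H2-Oa had log2 fold changes of -2.87 (0.32) and -2.21 (0.21), both called. Unstimulated H2-Ob was thus above Cd79b in mean TPM, and stimulated H2-Ob below it. Ciita, the coactivator that switches class II genes on, held 3 to 12 exon reads in every library.

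**Figure D4:**
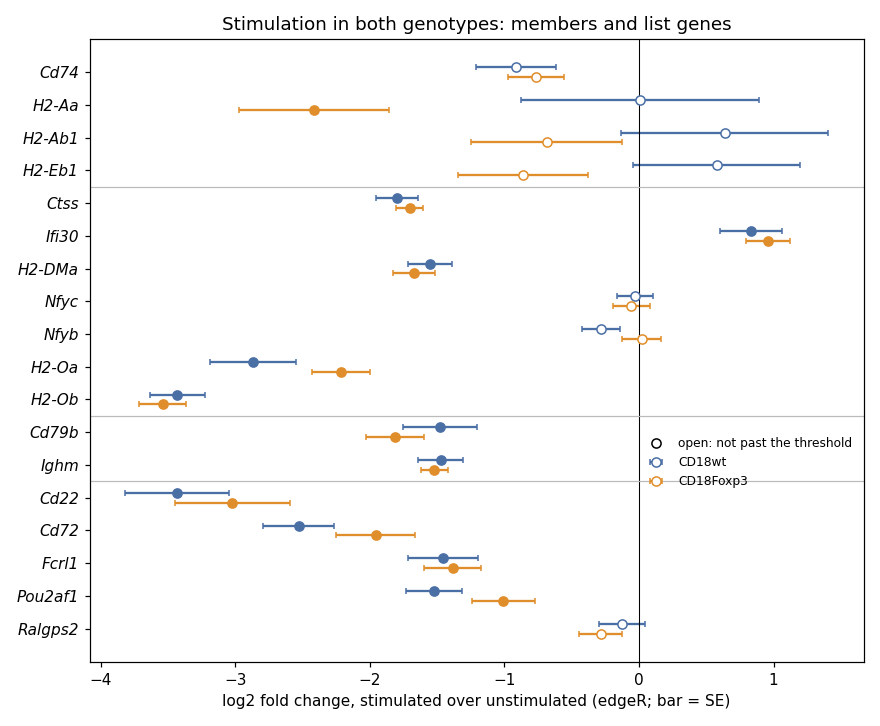
log2 fold change of stimulated over unstimulated Treg by edgeR in CD18wt (blue) and CD18Foxp3 (orange), with the standard error as bars and filled points for genes past the threshold. The genes are, from the top, class II members, other class II pathway genes, B cell members and B lineage list genes, with Ighm in reads over the gene. Cd79b and Ighm lie between -1.47 and -1.81 in both genotypes. The 3 class II chains lie at 0.01 to 0.64 in CD18wt and at -2.42 to -0.69 in CD18Foxp3. Without replicate 2 of stimulated CD18wt Treg their CD18wt values were -2.12 to -0.50, which is not drawn.

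The B lineage list held 21 other genes, all with reads in at least one library. Their summed level was 104 to 111 RPM in exon reads in unstimulated CD18wt, 78.2 to 83.7 in unstimulated CD18Foxp3, 44.0 to 59.5 in stimulated CD18wt and 39.1 to 51.1 in stimulated CD18Foxp3 Treg. The genes of the list differed widely, and those named here were chosen after their values were seen. Fcer2a had no exon read in 11 of the 12 libraries and Blnk, the linker below the receptor, in 8. Over the gene, stimulated CD18Foxp3 Treg held 4, 0 and 3 reads of Fcer2a and 11, 11 and 4 of Blnk. Pax5, the factor that sets B cell identity, held 30, 27 and 20 exon reads in unstimulated CD18wt Treg, 4, 14 and 1 in unstimulated CD18Foxp3 Treg and at most 5 in any stimulated library. Cd22, Cd72, Fcrl1 and Pou2af1 each held at least 108 exon reads in every unstimulated library. The part of this list in the levels of Cd79b and Ighm was not tested.

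Other B lineage genes had levels that passed the filter in Treg. With stimulation 6 of 9 tested were called lower in CD18wt and 6 of 8 in CD18Foxp3 Treg, none higher, with median log2 fold changes of -1.76 and -1.67. Of all genes 14.9% and 17.6% were called lower, with medians of 0.02 and 0.01. Pax5 was among those called in CD18wt Treg. It passed the filter through the unstimulated libraries alone, with 30, 27 and 20 exon reads against 5, 0 and 0 after stimulation. Of this list 10 genes were tested between unstimulated genotypes and 6 between stimulated ones. The tested set thus leans to genes that were higher without stimulation, which limits what the counts and medians show. The log2 fold changes in CD18wt and CD18Foxp3 Treg were -2.53 (SE 0.26) and -1.96 (SE 0.29) for Cd72, and -3.43 (SE 0.39) and -3.02 (SE 0.43) for the sialic acid receptor Cd22. They were -1.46 (SE 0.26) and -1.38 (SE 0.21) for Fcrl1, and -1.52 (SE 0.21) and -1.01 (SE 0.23) for Pou2af1, a coactivator at octamer promoters. The call of Pou2af1 in CD18Foxp3 Treg was lost on leaving out any library other than replicate 1 of the stimulated group, at -1.12 to -0.87. It was also lost with limma (adjusted p = 0.024 and 0.025 at pseudocounts of 1 and 0.1). Ralgps2 was not called, at -0.12 (0.17) and -0.29 (0.16). Between unstimulated genotypes Pou2af1 alone of 10 tested was called, where 0.135% of all genes were called and 0.0845% were lower. It stood at 26.3 ± 3.27 TPM in CD18wt and 9.63 ± 1.59 TPM (SD, n = 3) in CD18Foxp3 Treg, which is -1.47 on the log2 scale (SE 0.18, edgeR adjusted p = 0.0043). That call was lost on leaving out any library other than replicate 3 of CD18wt Treg, with edgeR adjusted p from 0.016 to 0.050. It was also lost with limma (adjusted p = 0.014 and 0.013 at pseudocounts of 1 and 0.1). The fit of all 12 libraries lost it too (edgeR adjusted p = 0.030).

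The pattern of the members over the 12 libraries was compared with that of 11317 genes by Pearson's r of log2(CPM + 1), as a description. The 12 libraries differ by stimulation and genotype, and r includes both. The sum of the B cell members used exon reads, where Ighm and Igkc are 0 by construction. Most of it is Cd79b, with 1846 exon reads in all, against 97 for Cd79a and 51 for Ms4a1. Nearest to that sum were Hcfc1r1 (r = 0.991), Rnf122 (0.982), Rab3gap1 (0.981), Tmub1 (0.981) and Acox3 (0.980). Nearest to the summed class II members, most of whose reads are Cd74, were Ovca2 (0.959), S100a10 (0.953), Ppib (0.945), Cst3 (0.936) and Gm2a (0.932).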

How the data were processed

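RNA of sorted splenic Treg was measured in 12 libraries (4 groups of 3, by the labels) from 10 ng of RNA with 15 PCR cycles. The authors mapped 59-base single reads to GRCm38 in CLC Genomics Workbench. The authors deposited, for each library, counts of exon, intron and gene reads, not normalized, and TPM, which matched exon counts per exon length scaled to one sum. Whether counting used strand is not given in the sources used here. Members without an annotated exon were read from the deposited gene read counts.

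Exon counts were tested with edgeR 4.0.16 in R 4.3.3 within the groups compared: filterByExpr with a minimum count of 10, TMM, robust quasi-likelihood test, and Benjamini-Hochberg adjustment over all genes tested. A call needed a fold of 1.5 and an adjusted p of 0.01, after the study's thresholds. The scripts were tested on simulated data. Levels on the log2(TPM + 1) scale were also compared by two-sided exact permutation. Alternatives were each library left out, a threshold of 0.05, DESeq2 1.42.0, its size factors within edgeR, a replicate block, 1 fit of all 12 libraries, no filter, reads placed uniquely, and limma 3.58.1 with a pseudocount of 1 or 0.1 on TPM. The fit of gene reads and the alternatives for Lyz2 were added after seeing the data. Named were the members, Itgb2, up to 5 genes of a list by highest mean TPM, and the genes nearest in pattern. The 10 lists (103 genes in the tables) and the members were chosen with earlier results of these data known. Single values of some list genes are not reported here. A library without reads allows up to 3.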

Additional observations from a re-analysis of the deposited data

Results flagged for a closer look

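Reads over Ighm were seen in every library although the exon counts and TPM of the gene are 0, and the lowest library held 3537. This signal lies outside the exon counts, whose 0 follows from the missing exon. Reads over the Ighv segments reached 114 and those over the Igkv segments 177 in the highest libraries, also outside the exon counts. Reads over Gm30211, the gene around Igkc, reached 462. The groups of 3 were too small for a test of single outlying libraries.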

How the results depend on the processing

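Of 965 log2 fold changes recomputed for named genes, 872 kept direction and side of the threshold, 42 lost the call, 16 gained it and 35 changed sign. Calls between unstimulated genotypes, 16 at first, became 33 at an adjusted p of 0.05, 86 with DESeq2, 134 without the filter, 1 and 5 with limma (pseudocount 1 and 0.1), 41 with the replicate block and 0 in the fit of all 12 libraries, and ran from 0 to 44 with a library left out, the 44 without CD18wt replicate 3. Between stimulated genotypes 0 calls became 22 with DESeq2, 61 without the filter, 1 with limma (pseudocount 0.1), 1 with the replicate block and 0 to 2 with a library left out. The interaction, 0 in edgeR, gave 1 call with DESeq2, 31 without the filter and 1 with limma at either pseudocount. Counts for stimulation, 4013 and 4636, stayed within 1.5 times. With stimulation in CD18wt Treg, H2-Aa, first at 0.01, was at -0.016 with DESeq2, -0.0062 with its size factors, -0.15 and -0.41 with limma, -0.90 with the replicate block and -0.00054 in gene reads, and ran from -2.12 to 0.53 with a library left out. The sign also turned for Cd79a between unstimulated genotypes (0.075 in gene reads) and, with limma, for Nfyc (0.36 and 0.37 in CD18wt, 0.29 and 0.30 in CD18Foxp3), Nfyb in CD18wt (0.12 and 0.13) and Ralgps2 (0.25 and 0.28 in CD18wt, 0.058 and 0.066 in CD18Foxp3). With a library left out, values that changed sign ran from -0.60 to 0.12 for H2-Aa, -0.087 to 0.90 for H2-Ab1 and -0.12 to 0.076 for Cd79b between unstimulated genotypes (0.019 for Cd79b without CD18wt replicate 2), from -1.60 to 0.55 for H2-Ab1 and -1.36 to 0.074 for H2-Eb1 between stimulated genotypes, and from -0.94 to 1.22 for H2-Ab1 and -0.50 to 1.0 for H2-Eb1 with stimulation in CD18wt Treg. They ran from -0.20 to 0.0072 for Nfyc and -0.13 to 0.12 for Nfyb with stimulation in CD18Foxp3 Treg, and in the interaction from -0.17 to 0.41 for Cd74, -1.93 to 0.25 for H2-Ab1 and -0.17 to 0.10 for Ighm (0.021 without CD18wt unstimulated replicate 2). The cause of these changes was not tested. Deviations from the group mean correlated at -0.13 to 0.15 between libraries of the same replicate number over the 4 comparisons, and at 0.14, 0.070 and 0.15 for stimulation in CD18Foxp3 Treg. Since they were not over 0.1 in every pair and no source says that the number marks a mouse, the block was not made the first choice. With the replicate block Cd74 was called between unstimulated genotypes (edgeR adjusted p = 0.0054) and with stimulation in CD18Foxp3 Treg (edgeR adjusted p = 2.9e-04). Between genotypes that block joins libraries of different mice by replicate number alone, and no source links them. Their correlations without stimulation were -0.0018, -0.0051 and 0.085 for replicates 1 to 3. Few reads limit H2-Aa, Cd79a and Ms4a1, which held 269, 97 and 51 exon reads in all.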

Other observations

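Lists of other cells and states were counted in the same fits. With stimulation 14.9% of all genes were called lower in CD18wt and 17.6% in CD18Foxp3 Treg, and 18.7% and 20.9% higher. Between unstimulated genotypes 0.0845% were called lower. Tested with stimulation in CD18wt and CD18Foxp3 Treg were 3 and 4 germinal centre B, 4 and 3 plasma cell, and 2 and 3 costimulatory genes. In the germinal centre B list of 7 genes, Serpina9 was called lower in unstimulated CD18Foxp3 than CD18wt Treg, and it was lower with stimulation in both genotypes. S1pr2 was also lower with stimulation in CD18wt, and Mybl1 was higher with stimulation in CD18Foxp3 Treg. In the plasma cell list of 7, Prdm1 and Xbp1, regulators that activated T cells also express, were higher with stimulation in both genotypes, and Sdc1 in CD18Foxp3 Treg. No interaction was called for any of these genes. None of 10 other immunoglobulin constant genes was tested in exon reads, since nearly all have no exon in the tables, and over the gene Ighg2c held 0 to 139 reads.

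In the plasmacytoid dendritic cell list of 4, only 1 gene was tested. This was Pacsin1, which was lower with stimulation in both genotypes, while Siglech was at 0 exon reads in all 4 groups. In the conventional dendritic cell list of 10, 3 were tested, and Dnase1l3 was lower in both. In the monocyte and macrophage list of 14, 2 were tested in each genotype. Lyz2 was lower in CD18wt Treg, with 130, 36 and 29 exon reads before and 8, 9 and 0 after stimulation. Its log2 fold change was -3.56 (edgeR adjusted p = 0.0049). Without replicate 1 of the unstimulated group, which held the 130 reads, it was at -2.76 (edgeR adjusted p = 0.044), and the call was also lost without replicate 3 of that group and without replicate 1 or 2 of the stimulated group (0.011 to 0.016). Itgam was lower in CD18Foxp3 Treg, and Ms4a7 was at 0 exon reads in all 4 groups. Of 3 costimulatory ligands Cd86 was lower in both. Of 9 Treg and T cell genes, Cd4, Cd3d, Cd3e and Cd3g were lower and Il2ra and Tnfrsf18 higher in both, and Ctla4 and Ikzf2 were higher in CD18Foxp3 Treg.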
